A study of Homo sapiens with 2 samples.

Results

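The RNA exosome is the main machine that degrades RNA from its 3′ end in human cells, and the transcripts of its EXOSC subunit genes were examined here in RKO cells. The members were chosen by name as the EXOSC1 to EXOSC10 rows of the deposited gene table, 10 of 40205 rows. All 10 had a mean of at least 1 FPKM (fragments scaled for gene length and for library total), as did 11274 rows in all. RKO is an established human colon carcinoma line. One group of cells had received a control siRNA and the other an siRNA against SRSF1, which encodes an SR protein that regulates pre-mRNA splicing, and both were collected 48 h after transfection. Each group held 1 library, so no difference below has a replicate check and no p-value was calculated.

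The exosome core is a barrel in which a ring of RNase PH-like proteins (EXOSC4 to EXOSC9) carries a cap of RNA-binding proteins (EXOSC1 to EXOSC3). In human cells this core has lost its own catalytic activity, and it threads RNA towards separate nucleases, the distributive exonuclease EXOSC10 in the nucleus and the processive nucleases DIS3 and DIS3L. The complex trims the precursors of ribosomal and small nucleolar RNA, removes short-lived nuclear transcripts and, with the SKI complex, degrades messenger RNA in the cytoplasm.

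SRSF1 was at 103 FPKM in the control library and at 32.7 FPKM in the SRSF1 siRNA library, which left 31.7% of the control level. The libraries held 64651910 and 61879680 reads, of which 70.4% and 75.9% mapped, and chromosome M took 6.60% and 8.39% of mapped reads. Of 9 intestinal epithelial markers, 4 were expressed, namely CDX2, KRT8, KRT18 and EPCAM, and 5, among them CDH1 and VIL1, were listed at 0 in both libraries. Their summed level was 115 FPKM in the control and 110 FPKM in the SRSF1 siRNA library. None of 5 leukocyte, 5 fibroblast and 4 endothelial markers reached a mean of 1 FPKM, and the highest summed level of any of these lists was 0.106 FPKM. In RNA from whole cultures, fewer cells of a type and less RNA per cell cannot be told apart.

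SRSF1 protein is known to bind purine-rich RNA, and GGAGA is a short form of its known motif. The 2 coding stretches below, from GENCODE 29 on GRCh38, are shown because EXOSC2 had the most of these motifs for its length among the subunits and EXOSC7 had the largest difference between the libraries, a choice made after their values were seen. Each is 60 bases of the coding strand inside 1 coding exon, 5′ to 3′, and capitals mark GGAGA. Within each gene the stretch with the most GGAGA was picked, and ties went to matches nearest its middle. The stretches thus do not show the motif density of the whole coding sequence. The EXOSC2 stretch lies in coding exon 2 at chr9:130695502-130695561 (plus strand) and the EXOSC7 stretch in coding exon 3 at chr3:44989575-44989634 (plus strand).
EXOSC2: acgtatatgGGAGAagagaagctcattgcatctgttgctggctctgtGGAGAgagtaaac
EXOSC7: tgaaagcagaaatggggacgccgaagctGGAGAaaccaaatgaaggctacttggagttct

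In the control library the subunit transcripts were present at unequal levels. EXOSC9 was highest at 76.2 FPKM (95% Poisson counting interval 73.6 to 78.7), followed by EXOSC2 at 65.2, EXOSC3 at 53.1 and EXOSC10 at 43.0 FPKM. EXOSC4 was at 32.2, EXOSC8 at 27.0 and EXOSC7 at 25.2 FPKM. EXOSC1 was at 11.5, EXOSC6 at 9.79 and EXOSC5 at 9.0 FPKM (7.82 to 10.3). Highest and lowest thus differed 8.46-fold, and both ends of this range are ring proteins. The median subunit level was 29.6 FPKM, against 9.53 FPKM over all expressed genes, and 9 of the 10 lay above that gene median. FPKM is scaled per length so that levels of genes can be set beside each other. The gene lengths and strand setting that the authors used are unknown, which limits this comparison between subunits. These are also transcript levels and say nothing of the protein ratio in the complex.

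The order of the levels was the same in the SRSF1 siRNA library, where all 10 subunits kept their rank. There EXOSC9 was at 65.8, EXOSC2 at 61.3, EXOSC3 at 46.5 and EXOSC10 at 41.8 FPKM. EXOSC4 was at 27.2, EXOSC8 at 24.9 and EXOSC7 at 16.4 FPKM, and EXOSC1 was at 14, EXOSC6 at 10.2 and EXOSC5 at 8.44 FPKM. Of the 9 neighbouring pairs in this order, the counting intervals were apart for 6 in the control library and for 5 in the SRSF1 siRNA library. In the control library EXOSC8 and EXOSC7 overlapped, as did EXOSC1, EXOSC6 and EXOSC5 from one to the next. With SRSF1 siRNA, EXOSC7 was apart from EXOSC8 and overlapped with EXOSC1, and EXOSC9 overlapped with EXOSC2, EXOSC4 with EXOSC8 and EXOSC6 with EXOSC5.

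**Figure D1:**
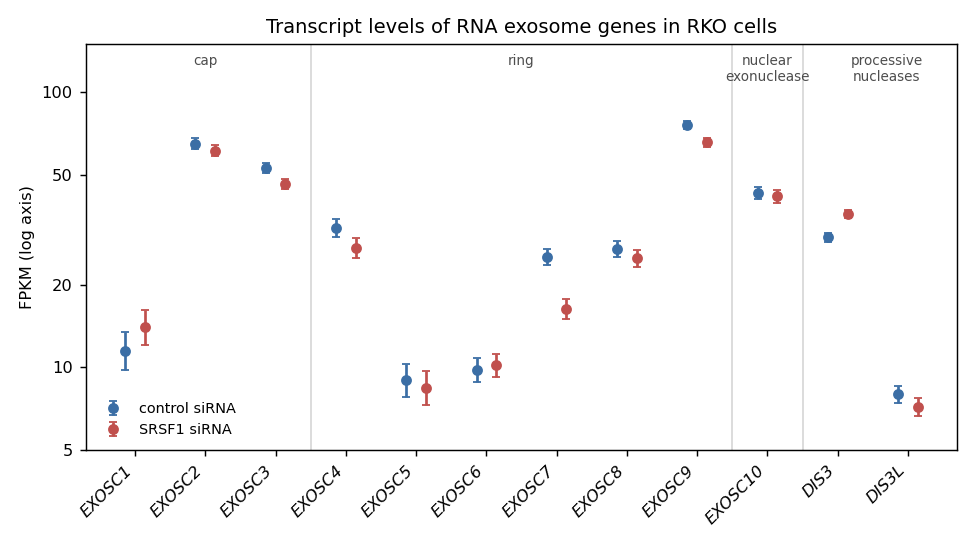
FPKM (log axis) of the 10 subunit genes and of the DIS3 and DIS3L nuclease genes in the control siRNA (blue) and SRSF1 siRNA (red) library, 1 library each; bars are 95% Poisson counting intervals. EXOSC7 stands at 25.2 FPKM in the control and 16.4 FPKM in the SRSF1 siRNA library with intervals apart. The bars of EXOSC3, EXOSC4 and EXOSC9 are apart too, while those of EXOSC1, EXOSC2, EXOSC5, EXOSC6, EXOSC8 and EXOSC10 overlap.

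The comparison of the libraries asks whether the subunit transcripts differ once SRSF1 is depleted. Most of them were close to their control level. Of the 10, 1 fell by at least 1.5-fold on the log2(FPKM + 1) scale and none rose by as much. Over all expressed genes, 4.30% were at least 1.5-fold lower and 1.22% at least 1.5-fold higher. The median log2(FPKM + 1) difference, SRSF1 siRNA minus control, was -0.10 over the subunits and -0.06 over all expressed genes, and 7 of the 10 lay within the quartiles of all expressed genes. The difference was below 0 for 8 of the 10 and above 0 for the other 2, and over all expressed genes it was below 0 for 60.3% and above 0 for 39.7%. The SD of the difference was 0.22 across the subunits and 0.29 across all expressed genes.

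The ring subunit EXOSC7 was the one that fell, from 25.2 FPKM on 841 fragments to 16.4 FPKM on 563 fragments. This plain ratio of FPKM values is 0.649 times the control level (95% counting interval 0.583 to 0.723), and ratios below are of the same kind. The upper end of that interval lies below the lower end of the interval of each of the other 9 subunits, the nearest being EXOSC4 at 0.753. The log2(FPKM + 1) difference of EXOSC7 was -0.59, or 1.51-fold, only just past the rule, and 4.12% of expressed genes had a lower difference. With the median difference of all genes set to 0 it was -0.54, under quantile normalization -0.54 and after removal of a length and GC trend -0.52, so that in each of these settings no subunit was at least 1.5-fold lower. EXOSC7 shares 604 exon bases with CLEC3B, a gene on the same strand. CLEC3B was listed at 0 in the control and at 0.0492 FPKM in the SRSF1 siRNA library. How fragments in the shared bases were counted is unknown, and whether they bear on the EXOSC7 values was not tested.

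The other ring subunits differed less. EXOSC9, also an autoantigen in the overlap syndrome of polymyositis and scleroderma, was at 0.865 times its control level (0.823 to 0.908). EXOSC4 was at 0.844 times (0.753 to 0.944), with 667 and 580 fragments. For both the counting interval lay below 1. EXOSC8, whose mutation causes a disorder of the cerebellum and motor neurons, was at 0.922 times (0.838 to 1.01). EXOSC5 was at 0.937 times (0.768 to 1.14) and EXOSC6, encoded by a gene with 1 annotated transcript, at 1.04 times (0.904 to 1.20). The intervals of these last 3 genes hold 1, so no difference was detectable at this depth.

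In the cap, EXOSC3, the subunit mutated in a form of pontocerebellar hypoplasia, was at 0.875 times its control level (0.824 to 0.930). EXOSC2 was at 0.940 times (0.881 to 1.003), with 1873 and 1815 fragments, and its interval holds 1. EXOSC1 was at 1.22 times, the highest ratio of the 10. On the smallest counts that fit, 153 and 192 fragments, its interval was 0.979 to 1.52 and holds 1, but these counts go with a gene model of 575 bases, shorter than the 585 coding bases of EXOSC1 in GENCODE 29. With the counts doubled to 306 and 384, for a model of 1150 bases, the interval was 1.04 to 1.42 and lay above 1. The processed pseudogene EXOSC3P1 was covered by 3 and 4 fragments, against 2261 and 2040 for EXOSC3.

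Among the nucleases, EXOSC10 was at 0.972 times its control level (0.903 to 1.05), the value nearest to 1 of the subunits. DIS3, the nuclear processive nuclease and a gene often mutated in multiple myeloma, was at 29.8 FPKM in the control and at 36.1 FPKM in the SRSF1 siRNA library, or 1.21 times (1.15 to 1.28). Its cytoplasmic counterpart DIS3L was at 7.97 and 7.16 FPKM, or 0.898 times (0.808 to 0.998). Neither reached 1.5-fold, and their counting intervals lie on opposite sides of 1. The FPKM of DIS3 was 0.692 times that of EXOSC10 in the control library and 0.863 times with SRSF1 siRNA, and 3.73 and 5.04 times that of DIS3L.

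**Figure D2:**
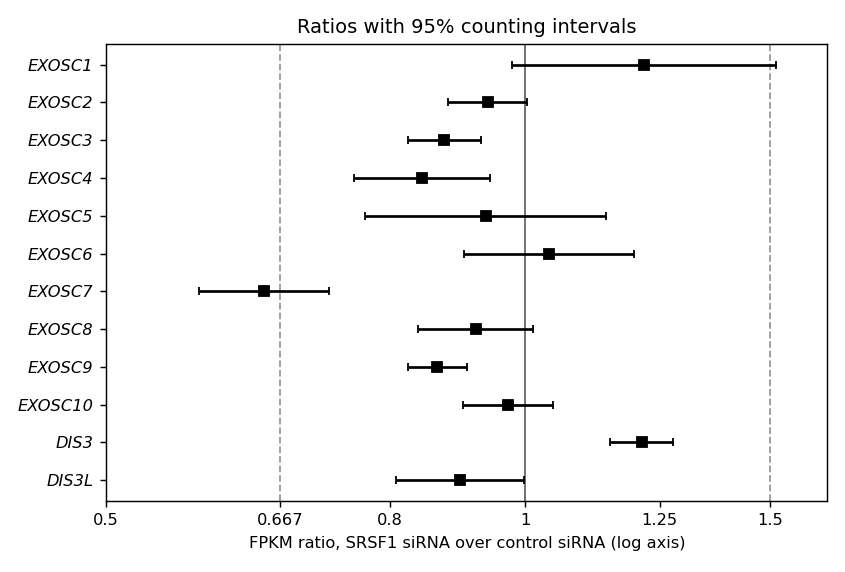
FPKM ratio of SRSF1 siRNA over control siRNA (log axis) for each subunit and for DIS3 and DIS3L, with 95% Clopper-Pearson counting intervals; dashed lines mark 1.5-fold either way and the solid line a ratio of 1. EXOSC7 at 0.649 lies apart from the other subunits, DIS3 at 1.21 lies above 1, and 6 of the 10 subunit intervals, drawn from the smallest counts that fit, hold 1; that of EXOSC1 does not when its counts are doubled.

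On the smallest counts that fit, the counting interval lay below 1 for 4 of the 10 subunits (EXOSC3, EXOSC4, EXOSC7 and EXOSC9), above 1 for none, and held 1 for the other 6. Over all expressed genes 34.5% had an interval below 1 and 19.5% one above 1. With counts raised wherever the model was shorter than the coding sequence, which concerned EXOSC1 and EXOSC10, 4 intervals lay below 1, 1 above (EXOSC1) and 5 held 1. The shares over all expressed genes were then 35.36% below and 20.04% above. These intervals do not cover the spread between cultures, which cannot be measured with 1 library per group. Summed over the 10 subunits, the FPKM were 352 in the control and 316 in the SRSF1 siRNA library, or 0.899 times.

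Transcript length moved with the difference between these libraries. Among expressed genes with a longest transcript near 1070 bases the median log2(FPKM + 1) difference was -0.16, and among those near 8179 bases it was 0.03. The subunit genes are short, with a median longest transcript of 2268 bases against 3560 bases over all expressed genes. After removal of the trend with length and GC content, the log2 difference of EXOSC4 went from -0.24 to -0.12 and that of EXOSC5 from -0.08 to 0.03, while EXOSC9 went from -0.21 to -0.25. The median over the 10 was then -0.08.

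**Figure D3:**
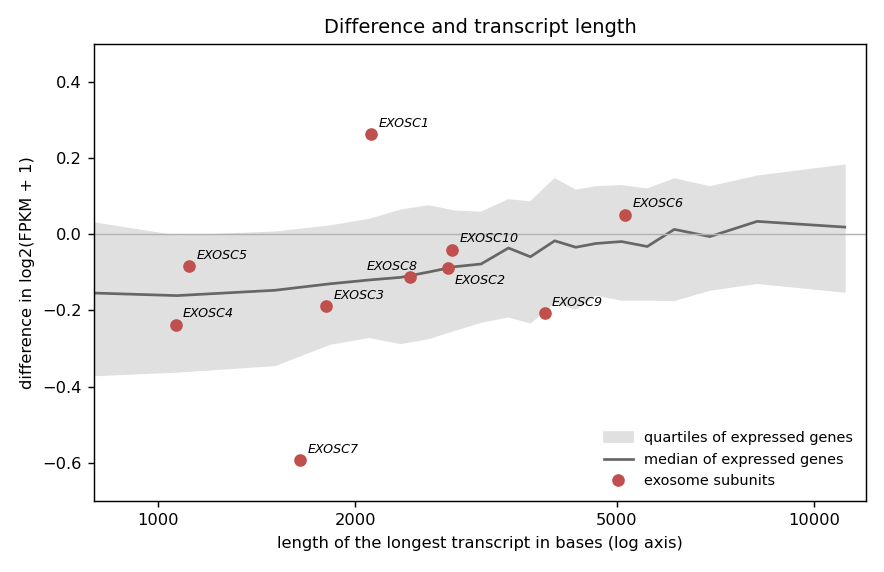
The log2(FPKM + 1) difference between SRSF1 siRNA and control, against the length in bases of the longest GENCODE 29 transcript (log axis); red points are the 10 subunits, the line and band are the median and quartiles of expressed genes in 20 bins of length. The subunits with the lowest and the highest difference, EXOSC7 at -0.59 and EXOSC1 at 0.26, lie outside the band, and the median of all genes climbs with length. EXOSC9 at -0.21 lies about at the lower edge of the band.

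The number of GGAGA motifs in the coding sequence varied widely among the subunits. EXOSC2 held 8 in 879 coding bases, or 9.10 per kilobase, which is above 99.1% of 9603 expressed genes with a coding sequence. Its transcript was at 0.940 times the control level. EXOSC7, the subunit that fell, held 4 in 873 bases (4.58 per kilobase), close to EXOSC3 with 4 in 825 bases (4.85 per kilobase). EXOSC8 and EXOSC9 held 3 each, EXOSC10 held 7 in 2655 bases, EXOSC4, EXOSC5 and EXOSC6 held 1 each, and EXOSC1 none in 585 bases. EXOSC1 and EXOSC6 had the lowest densities, 0 and 1.23 per kilobase, and were the 2 subunits with a difference above 0. The densities of EXOSC4 and EXOSC5, 1.27 and 1.42 per kilobase, were close to that of EXOSC6, and their differences were -0.24 and -0.08. The EXOSC4 coding sequence used, 785 bases, is not a whole number of codons, so its density may rest on an incomplete sequence. The median was 2.42 per kilobase over the subunits and 2.35 over expressed genes, of which 90.4% held at least 1 motif. Motifs were searched on the coding strand only, and a match of 5 letters is not a binding site. Whether motif density bears on the differences was not tested.

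Cofactors feed RNA to the exosome. Of 15 nuclear cofactor genes none reached 1.5-fold in either direction, where 1.22% of all expressed genes were that much higher and 4.30% that much lower, so a count of 0 in a list of this size is near the background. The difference was above 0 for 9 of them and below 0 for 6, against 39.7% and 60.3% of all expressed genes, and the median was 0.02. MTREX, the helicase of the nuclear cofactor complexes, listed under its older symbol SKIV2L2, was at 62.2 and 64.2 FPKM, or 1.03 times (0.996 to 1.07). The highest of the list was ZC3H3, a zinc finger protein of polyadenylated nuclear RNA, at 1.18 times (1.05 to 1.33). The lowest was NCBP2, the cap-binding subunit of the nuclear cap-binding complex, at 0.841 times (0.80 to 0.883).

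None of 4 cytoplasmic cofactor genes passed 1.5-fold, a count near the background of 1.22% higher and 4.30% lower over all expressed genes. Their median was -0.01. SKIV2L, the helicase of the SKI complex, was the lowest at 5.33 and 3.86 FPKM, or 0.725 times (0.598 to 0.877). This interval rests on the smallest counts that fit, 257 and 192 fragments for a gene model of 2085 bases. The longest SKIV2L transcript has 4507 bases, and the true counts may be a whole multiple. HBS1L, whose gene also makes the protein that links the SKI complex to the exosome, was the highest at 1.12 times (1.07 to 1.18). The exosome subunits had a lower median difference than either cofactor list, but with 1 library per group this was not tested. With the length and GC trend removed, the medians lay closer, at -0.081 over the subunits, -0.064 over the cytoplasmic and -0.014 over the nuclear cofactors.

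In the other routes of RNA decay, none of 18 genes of decapping and 5′-to-3′ decay passed 1.5-fold on the log2(FPKM + 1) scale, and their median was -0.05. On that scale DCP2, the decapping enzyme, was the highest at 3.10 and 5.08 FPKM, or 1.64 times (1.49 to 1.80), and LSM1, of the ring that binds deadenylated messenger RNA, the lowest at 0.788 times (0.722 to 0.860). Over all expressed genes 1.22% were at least 1.5-fold higher and 4.30% at least 1.5-fold lower. The count of 0 among these 18 genes is thus near the background. None of 18 deadenylation genes passed either (median -0.02), a count again near the background. PAN2, a subunit of a poly(A) nuclease, was the lowest at 1.78 and 0.905 FPKM, or 0.509 times (0.403 to 0.640), and its partner PAN3 was the highest at 1.27 times (1.18 to 1.37). For DCP2 and PAN2 the plain ratio is past 1.5-fold and the log2(FPKM + 1) difference, 0.57 and -0.54, is not, because their levels are low.

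None of 10 nonsense-mediated decay factors passed 1.5-fold, again near the background of 1.22% higher and 4.30% lower over all expressed genes. Their median was -0.07. SMG9, a regulator of the SMG1 kinase, was the lowest at 14.1 and 9.53 FPKM, and UPF3B, which joins UPF2 to the exon junction complex, the highest at 27.4 and 38.0 FPKM. The 10 exosome subunits ranged from -0.59 to 0.26 on the log2(FPKM + 1) scale, and these 10 factors from -0.52 to 0.46.

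**Figure D4:**
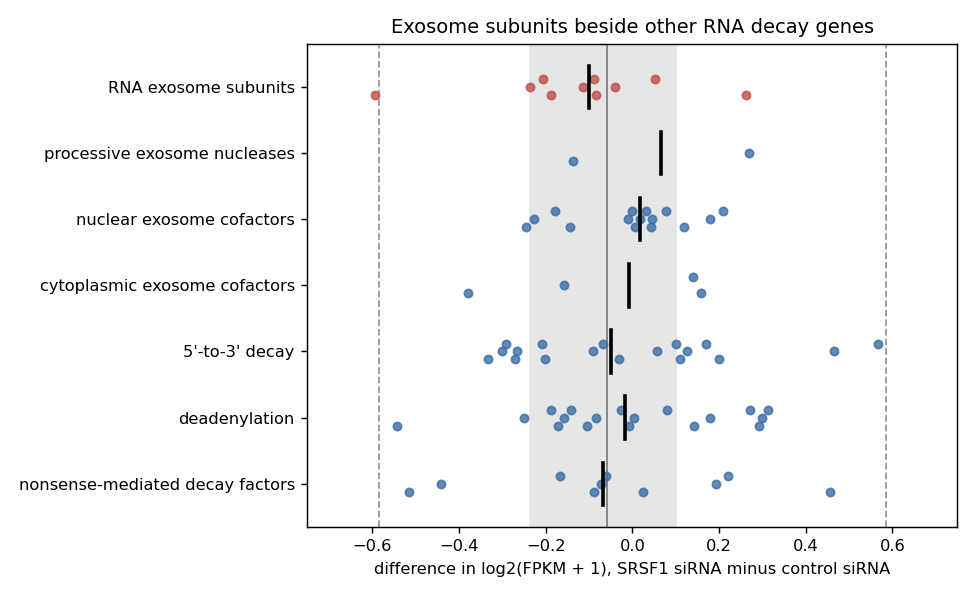
The log2(FPKM + 1) difference between SRSF1 siRNA and control of the exosome subunits (red) and of other RNA decay genes (blue), 1 point per gene with a black line at each list's median; the grey band and line are the quartiles and median of all expressed genes and dashed lines mark 1.5-fold. Of all genes shown, EXOSC7 alone lies past a dashed line, and 7 of the 10 subunits lie inside the band. Over all expressed genes, 4.30% were at least 1.5-fold lower and 1.22% at least 1.5-fold higher.

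Other genes had nearly the same pair of values as EXOSC7. The 3 protein-coding rows nearest to it, by Euclidean distance over log2 FPKM in the 2 libraries, were CD320 at 24.9 and 16.7 FPKM, C1GALT1C1 at 25.5 and 16.0 FPKM, and IBTK at 25.9 and 16.5 FPKM. With 2 libraries, such likeness says only that levels and ratio are alike.

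In GENCODE 29, 7 of the 10 subunit genes share exon bases with another gene, and whether the authors' counting used strand is unknown. For 6 of them a partner is on the opposite strand. EXOSC8 shares 302 bases with SUPT20H, which was at 27.4 and 36.2 FPKM in the control and SRSF1 siRNA library. EXOSC9 shares 254 bases with the cyclin gene CCNA2 (56.3 and 55.1 FPKM), and EXOSC5 shares 20 with BCKDHA (7.52 and 4.08 FPKM). EXOSC3 shares 96 bases with DCAF10 (1.71 and 2.31 FPKM), and EXOSC4 shares 274 with an antisense gene. EXOSC10 shares 2196 exon bases with an antisense gene and 161 with another. None of these antisense genes, nor that of EXOSC4, had a level listed under its symbol. EXOSC1, EXOSC2 and EXOSC6 share exon bases with no other gene.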

How the data were processed

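RNA of 2 RKO libraries, 1 per group as labelled, was sequenced. The authors deposited their FPKM of each gene in both libraries. Bowtie 0.12.2 and build hg19 were used, per the submitters' processing notes. The counting tool, gene annotation, strand setting and filters were not given in the sources used here.

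Differences were taken as log2(FPKM + 1), SRSF1 siRNA minus control, over rows with a mean FPKM of at least 1. This scale makes changes of weakly expressed genes look smaller. Rose and fell mean at least 1.5-fold on this scale; times are plain FPKM ratios. Fragment counts were derived back from the FPKM with library totals of 23138519 (control) and 23852089 (SRSF1 siRNA), read from the ratio of rows with equal counts. Of 16235 rows above 0 in both libraries, 99.99% came out whole (relative tolerance 2e-12); after adding 1 to the control total, 0.1% of 2000 rows did. These are the smallest fitting counts, and a true count may be a whole multiple, which would narrow an interval. They gave exact 95% intervals (Poisson for levels, Clopper-Pearson for ratios), which cover counting error only.

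Transcript lengths, GC content, coordinates and coding sequences came from GENCODE 29 on GRCh38. Lengths and GC were matched by symbol or an unambiguous synonym for 95.6% of expressed rows. Coding sequences were matched by symbol alone, for 9603 of 11274 expressed rows. Counts of rows without a coding sequence were not raised. Additive lowess curves (span 0.3) served to remove the trend with length and GC. Coordinates were not used with the hg19 values. Named were all subunits, DIS3, DIS3L, MTREX, SRSF1, the highest and lowest member of each related list and any past 1.5-fold, and the 3 rows nearest the subunit with the largest difference. The members and lists were chosen with earlier results of these data known. The steps were tested on simulated data. Python 3.11.15, scipy 1.17.1 and statsmodels 0.14.6 were used. A deposited mapping summary gave the authors' read numbers.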

Additional observations from a re-analysis of the deposited data

How the results depend on the processing

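The median log2(FPKM + 1) difference of the subunits stayed below 0 under each alternative, from -0.11 (columns rescaled to the same sum) to -0.03 (quantile normalization), and between -0.11 and -0.09 without any 1 subunit. The median over all expressed genes moved too. It was -0.06 as reported, -0.07 with columns rescaled and 0.01 under quantile normalization. The count of subunits at least 1.5-fold lower was 1 as reported and 0 under quantile normalization, with the median difference of all genes set to 0, and with the length and GC trend removed, where EXOSC7 was at -0.54, -0.54 and -0.52. No subunit was at least 1.5-fold higher under any of them. Of 60 subunit values under alternatives, 57 kept the sign of the reported value and 3 did not: EXOSC5 with the trend removed (0.03), and EXOSC10 under quantile normalization (0.003) and with the median set to 0 (0.02). None moved beyond its counting interval. The median of the cytoplasmic cofactor list was 0.14 over its 3 genes whose mean FPKM reached 5. No paired analysis was possible because each group held 1 library. The count of subunits with a counting interval above 1 was 0 from the smallest counts and 1, EXOSC1, with counts raised to a model at least as long as the coding sequence, an alternative chosen after seeing the data; the count below 1 was 4 in both. Depth limits EXOSC5, with 207 and 200 recovered fragments, and EXOSC1, whose true count is uncertain.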
